A study of Mus musculus with 35 samples.

Results

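Erythroid and megakaryocyte transcription factors are described here as 9 named genes, Gata1, Klf1, Gfi1b, Tal1, Nfe2, Lmo2, Zfpm1, Ldb1 and Fli1, taken from RNA-seq counts of mouse bone marrow cells. They were found by symbol among 49671 genes, with 1 row each, and all 9 passed the filter on low counts that left 17166 genes for testing. The cells were blood stem and progenitor cells depleted of lineage-positive cells (lin- HSPCs) of C57Bl/6 mice of both sexes. They were transduced with a lentivirus carrying an empty vector with mCherry or mEGFP-tagged NUP98-HOXA9 (G-NHA9), a leukemia fusion of the FG-motif-rich N-terminal part of the nucleoporin NUP98 to the DNA-binding homeodomain of HOXA9. G-NHA9-8FA has phenylalanines of C-terminal FG motifs replaced by alanine, and G-NHA9-21FGAA has its C-terminal FG pairs replaced by alanine pairs. G-NHA9Midi is a truncation that keeps only the C-terminal FG motifs, G-NHA9Midi-21FGAA has no FG motif left, and G-NHA9-ΔDNA carries homeodomain mutations that weaken DNA binding. The labels spell NHA9 as NHX9 and ΔDNA as DDNA. Each of the 7 conditions had 5 libraries by the labels, while the study's methods describe transduction in triplicate, so how many separate transductions stand behind n = 5 is not known here. Donor mice are labelled 8 weeks old, except empty vector replicate 4 (9 weeks), empty vector replicate 5 (10 weeks) and G-NHA9 replicate 1 (11 weeks). After sorting for the vector's fluorescence, all cells grew for 1 week in Methocult M3434, a methylcellulose medium with erythroid and myeloid growth factors, with 10 ng/mL GM-CSF. The comparisons ask what the fusion does to these factors, and what its FG motifs and DNA binding contribute.

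Blood progenitors become red cells or megakaryocytes under a small set of transcription factors. GATA1 binds DNA at GATA sites and works with its cofactor FOG1, the product of Zfpm1. TAL1, LMO2 and LDB1 form a complex with GATA factors, in which TAL1 binds E-boxes and LMO2 and LDB1 are adaptors that do not bind DNA. KLF1 switches on the globin and red cell membrane genes, and GFI1B is a repressor needed in both lineages. NFE2 drives the late, platelet-forming stages of megakaryocytes and FLI1 their development. GATA1, TAL1 and GFI1B are not particular to these 2 lineages, since mast cells, eosinophils and early progenitors make some of them as well.

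Total counts per library lay between 31559914 and 75810659, and the counts were scaled by TMM and given as CPM, counts relative to a library's scaled total. The lineage of the cells was checked on marker lists. The 5 lymphoid genes summed to 0.0587 to 1.36 CPM per library over all conditions, and the 4 endothelial genes to 10.02 to 70.2 CPM. Markers of erythroid cells, megakaryocytes, mast cells, eosinophils, neutrophils and macrophages were all present, and libraries thus held RNA of several cell types. In bulk libraries, fewer cells of a type and less RNA per cell cannot be told apart. The sources used here do not tie each library to a culture or mouse, so p-values measure only the spread between these libraries, which may in part be technical.

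The 4 factors with the widest range of levels over the conditions, Gata1, Klf1, Gfi1b and Zfpm1, are shown with the stretch before their transcription start. The sequences are from RefSeq on GRCm38.p6, 5′ to 3′ on the gene's strand, and, except for Klf1, end at the base before the RefSeq start. Of the 9 genes, 6 had such a window. Capitals mark matches on either strand to the letters GATA with an A or T before them and an A or G after them, which GATA factors bind, or to CCNCNCCC, which KLF1 and other KLF factors bind. For Gata1, the stretch is chrX:7967911-7968160 on the minus strand. For Klf1 it is chr8:84901732-84901927 on the plus strand, the 196 bases before the first exon in GENCODE M21, which begins upstream of the RefSeq start. For Gfi1b it is chr2:28621983-28622232 on the minus strand, and for Zfpm1 chr8:122281891-122282140 on the plus strand.
Gata1: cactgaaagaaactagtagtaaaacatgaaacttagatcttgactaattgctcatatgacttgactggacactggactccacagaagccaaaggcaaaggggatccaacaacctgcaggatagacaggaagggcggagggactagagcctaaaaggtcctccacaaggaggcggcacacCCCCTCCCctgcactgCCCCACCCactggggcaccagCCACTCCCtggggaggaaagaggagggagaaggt
Klf1: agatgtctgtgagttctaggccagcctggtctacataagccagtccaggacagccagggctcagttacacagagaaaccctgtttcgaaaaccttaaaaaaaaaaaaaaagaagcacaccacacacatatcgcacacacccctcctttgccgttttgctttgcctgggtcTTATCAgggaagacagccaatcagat
Gfi1b: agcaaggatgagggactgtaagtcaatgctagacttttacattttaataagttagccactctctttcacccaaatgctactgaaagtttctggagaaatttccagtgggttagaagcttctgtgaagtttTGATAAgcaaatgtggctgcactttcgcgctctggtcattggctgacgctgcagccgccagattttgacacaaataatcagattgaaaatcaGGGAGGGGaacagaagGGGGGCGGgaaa
Zfpm1: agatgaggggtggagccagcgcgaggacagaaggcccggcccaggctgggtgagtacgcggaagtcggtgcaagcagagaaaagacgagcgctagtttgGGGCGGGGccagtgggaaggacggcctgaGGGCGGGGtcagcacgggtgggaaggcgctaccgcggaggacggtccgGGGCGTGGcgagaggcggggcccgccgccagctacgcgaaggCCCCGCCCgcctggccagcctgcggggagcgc

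The Gata1 stretch held 3 KLF matches and the Zfpm1 stretch 4, and neither held a GATA match. Klf1 held 1 GATA match, at -80 to -75 from its RefSeq start, and Gfi1b held 1, at -120 to -115, with 2 KLF matches nearer to the start. Windows that are not printed held matches as well. Ldb1, which moved least over the conditions, held 2 GATA matches in 1 window and KLF matches in each of its windows. Tal1 held 1 GATA match in 1 window and 4 KLF matches in another. A GATA match lies in 26.5% of all 32851 mouse windows of 250 bases and a KLF match in 45.9%, so these are descriptions of the sequence and not evidence of binding. The distal enhancers of these genes lie outside the windows.

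The 9 factors differed in how far their level moved over the 7 conditions. Klf1 spanned the widest range, with its highest condition mean 39.1 times its lowest, followed by Gata1 (11.2), Gfi1b (5.56) and Zfpm1 (3.81). Tal1 spanned 2.09, Lmo2 1.94, Fli1 1.51, Nfe2 1.43 and Ldb1 1.15. The ranges of neighbouring conditions in the order of levels overlapped in 4 of 6 steps for Gata1, 5 of 6 for Klf1 and Zfpm1, and 6 of 6 for the other genes. For Gata1, Klf1, Gfi1b and Zfpm1, G-NHA9Midi and G-NHA9-8FA were the 2 conditions with the lowest means. Per kilobase of exon, in the empty vector, Lmo2 was the most abundant at 42.7 CPM per kb, before Nfe2 (33.8), Fli1 (24.7), Tal1 (19.9) and Ldb1 (15.1). Gata1 was at 8.11 CPM per kb, Zfpm1 at 5.63, Klf1 at 3.74 and Gfi1b at 3.38, so the genes that moved most were also the least abundant.

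**Figure D1:**
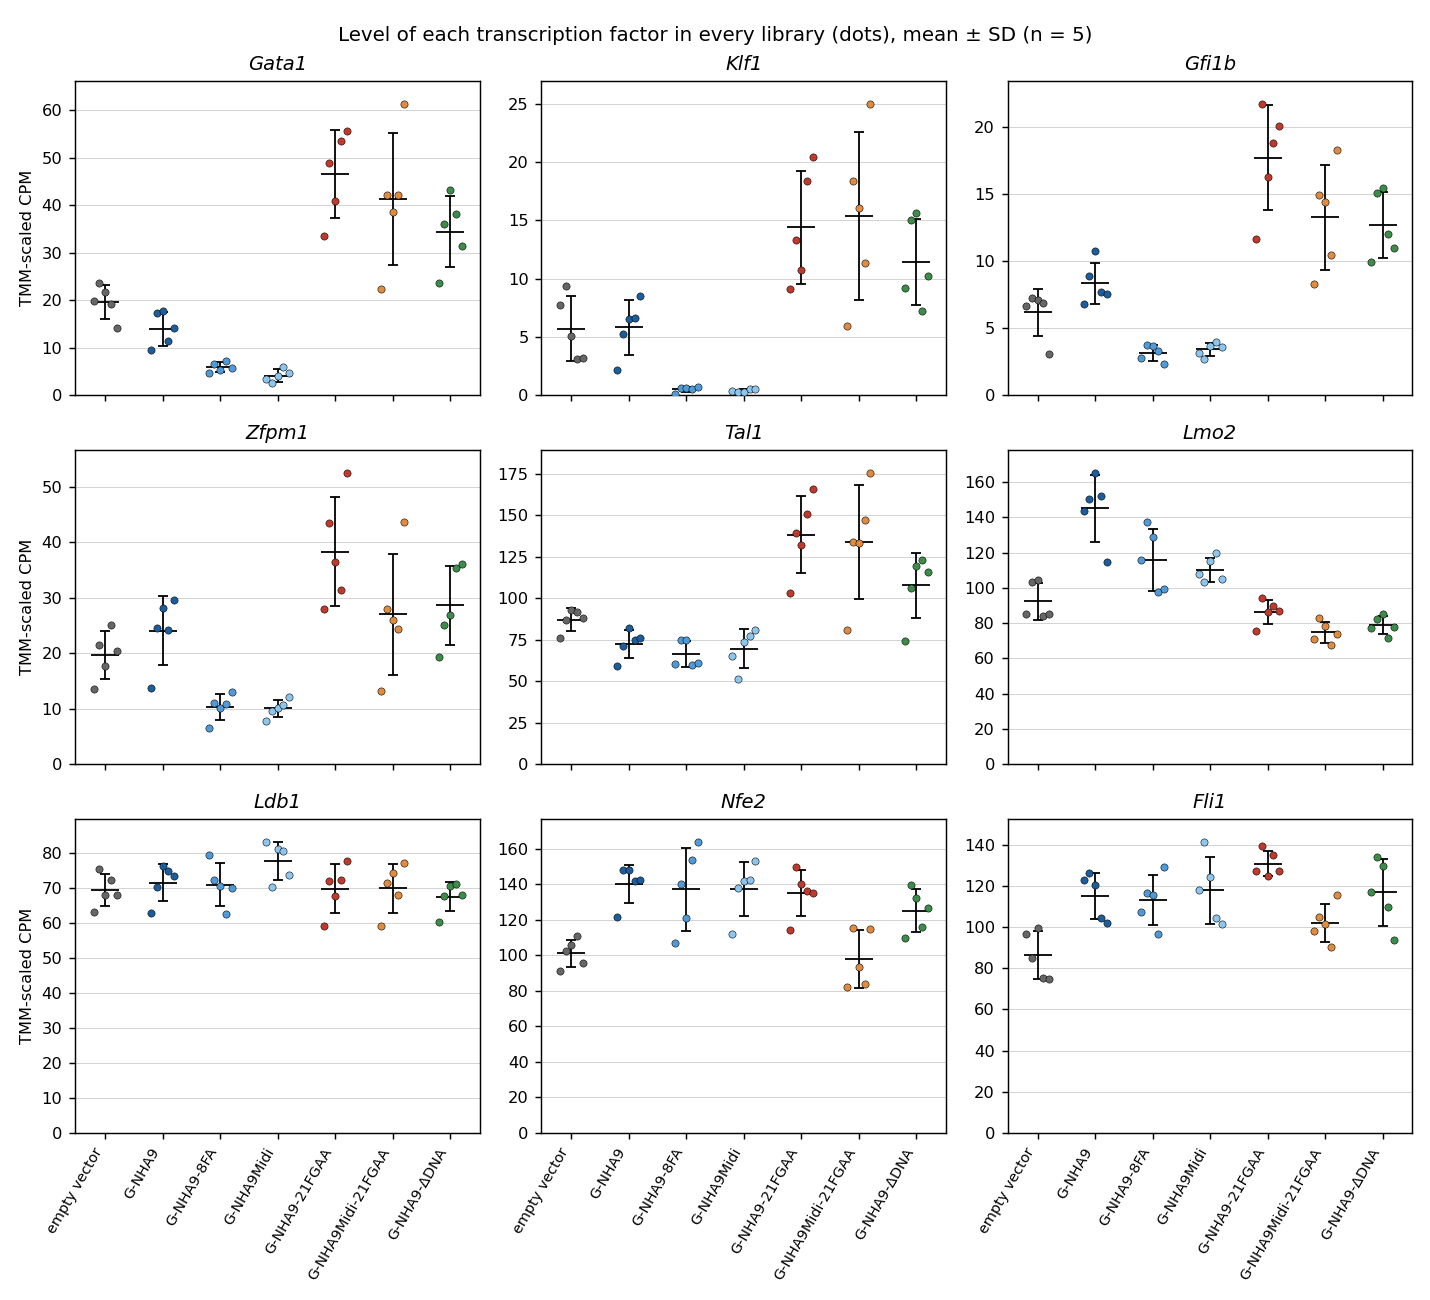
TMM-scaled CPM (y axis, linear and starting at 0) of each of the 9 factors in the 7 conditions (x axis), with 1 dot per library and a bar for mean ± SD (n = 5). Gata1, Klf1, Gfi1b and Zfpm1 are lowest in G-NHA9-8FA and G-NHA9Midi, while Ldb1 lies between 59.0 and 83.1 CPM in every library.

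The comparisons with the empty vector came first, and all 6 share the same 5 empty vector libraries. Genes were called changed at an adjusted p under 0.05 in edgeR's quasi-likelihood test. Of the 9 factors, 3 rose and 0 fell with G-NHA9, where 16.9% of all tested genes rose and 15.2% fell. With G-NHA9-8FA 3 rose and 4 fell, beside 13.4% and 13.2% of all genes. With G-NHA9Midi 3 rose and 4 fell, beside 20.5% and 20.0%. With G-NHA9-21FGAA 7 rose and 0 fell, beside 14.7% and 12.5%. With G-NHA9Midi-21FGAA 4 rose and 1 fell, beside 9.59% and 7.32%, and with G-NHA9-ΔDNA 4 rose and 0 fell, beside 9.85% and 7.35%. The 5 libraries of a construct lay wholly above or below the 5 of the empty vector for 3 factors with G-NHA9 (20.1% of all genes), 4 with G-NHA9-8FA (17.1%), 5 with G-NHA9Midi (27.4%), 6 with G-NHA9-21FGAA (16.8%), 2 with G-NHA9Midi-21FGAA (11.5%) and 2 with G-NHA9-ΔDNA (12.1%). At an unadjusted p under 0.05, 1 factor was lower with G-NHA9, 0 with G-NHA9-21FGAA and 1 with G-NHA9-ΔDNA, and DESeq2 called 0 lower in these 3 comparisons. The median absolute log2 fold change of the 9 factors was 0.42 with G-NHA9, beside 0.30 for all genes, and 0.67 with G-NHA9-21FGAA, beside 0.28.

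Gata1 (ENSMUSG00000031162.14, GRCm38 chrX:7959260-7978071, minus strand) encodes the master regulator of both lineages. Its level was 19.9, 23.6, 21.9, 19.3 and 14.1 CPM in the 5 empty vector libraries. It was 9.56, 17.3, 17.7, 11.5 and 14.3 CPM with G-NHA9, 4.64, 6.66, 5.46, 7.28 and 5.80 CPM with G-NHA9-8FA and 3.53, 2.52, 3.99, 6.01 and 4.74 CPM with G-NHA9Midi. It was 33.5, 48.9, 40.9, 53.6 and 55.8 CPM with G-NHA9-21FGAA, 22.5, 42.1, 38.6, 42.3 and 61.3 CPM with G-NHA9Midi-21FGAA and 23.7, 36.0, 43.1, 38.3 and 31.5 CPM with G-NHA9-ΔDNA. Every G-NHA9-8FA and G-NHA9Midi library was below every empty vector library, every library of G-NHA9-21FGAA and G-NHA9-ΔDNA was above them all, and the G-NHA9 libraries overlapped them. Gata1 fell 3.31-fold with G-NHA9-8FA (log2 fold change -1.73 ± 0.23, adjusted p = 5.98e-07) and 4.75-fold with G-NHA9Midi (-2.25 ± 0.23, adjusted p = 2.42e-09). It rose 2.35-fold with G-NHA9-21FGAA (1.24 ± 0.22, adjusted p = 1.17e-04), 2.09-fold with G-NHA9Midi-21FGAA (1.07 ± 0.22, adjusted p = 0.00148) and 1.74-fold with G-NHA9-ΔDNA (0.80 ± 0.22, adjusted p = 0.0108). With G-NHA9 its log2 fold change was -0.49 ± 0.22, adjusted p = 0.0845, which did not pass. That call was made with the replicate number as a block (-0.53, adjusted p = 0.0228) and when empty vector replicate 5 was left out (adjusted p = 0.0434).

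Zfpm1 (ENSMUSG00000049577.15, GRCm38 chr8:122282141-122337251, plus strand) encodes FOG1, through which GATA1 acts on many of its targets. It was at 13.6, 21.6, 17.7, 25.2 and 20.4 CPM with the empty vector, 6.52, 11.04, 10.1, 10.9 and 13.1 CPM with G-NHA9-8FA and 7.73, 9.66, 10.2, 10.6 and 12.1 CPM with G-NHA9Midi. Both sets lay below the lowest empty vector library. It was at 27.9, 43.4, 36.4, 31.4 and 52.5 CPM with G-NHA9-21FGAA, all above the highest empty vector library. Zfpm1 fell 1.91-fold with G-NHA9-8FA (-0.93 ± 0.24, adjusted p = 0.00375) and 1.957-fold with G-NHA9Midi (-0.97 ± 0.24, adjusted p = 0.00151), and rose 1.95-fold with G-NHA9-21FGAA (0.96 ± 0.24, adjusted p = 0.00292). Its log2 fold change was 0.29 ± 0.24, adjusted p = 0.383 with G-NHA9, 0.46 ± 0.24, adjusted p = 0.185 with G-NHA9Midi-21FGAA and 0.54 ± 0.24, adjusted p = 0.114 with G-NHA9-ΔDNA, none of which passed. The last pair passed with the replicate block (0.40, adjusted p = 0.0198, and 0.53, adjusted p = 0.00313), and G-NHA9Midi-21FGAA also passed when its replicate 1 was left out (adjusted p = 0.0407).

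Klf1 (ENSMUSG00000054191.8, GRCm38 chr8:84901928-84905291, plus strand) encodes the activator of adult globin genes. It was at 7.79, 9.41, 5.11, 3.09 and 3.21 CPM with the empty vector and 2.19, 5.27, 6.58, 6.599 and 8.502 CPM with G-NHA9, 2 overlapping sets. It was at 0.140, 0.640, 0.604, 0.513 and 0.733 CPM with G-NHA9-8FA and 0.359, 0.270, 0.266, 0.535 and 0.535 CPM with G-NHA9Midi, where a library held 6 to 35 and 9 to 26 counts of the gene. No library of these 2 conditions came near the lowest empty vector library. With G-NHA9-21FGAA it was at 9.16, 13.4, 10.8, 18.4 and 20.4 CPM, with G-NHA9Midi-21FGAA at 5.92, 18.4, 16.1, 11.4 and 25.0 CPM and with G-NHA9-ΔDNA at 9.23, 15.0, 15.6, 7.20 and 10.3 CPM. Klf1 fell 10.9-fold with G-NHA9-8FA (-3.45 ± 0.42, adjusted p = 1.77e-07) and 14.5-fold with G-NHA9Midi (-3.86 ± 0.44, adjusted p = 1.43e-08), the largest changes of any of the 9 factors against the empty vector. It rose 2.51-fold with G-NHA9-21FGAA (1.33 ± 0.36, adjusted p = 0.00561), 2.67-fold with G-NHA9Midi-21FGAA (1.42 ± 0.36, adjusted p = 0.00643) and 1.99-fold with G-NHA9-ΔDNA (0.996 ± 0.35, adjusted p = 0.0486). With G-NHA9 its log2 fold change was 0.020 ± 0.36, adjusted p = 0.976. The G-NHA9-ΔDNA call was lost when empty vector replicate 3, 4 or 5 or G-NHA9-ΔDNA replicate 1, 2, 3 or 5 was left out (adjusted p of 0.0502 to 0.132), with no filter on low counts (0.0564) and in a fit of the 2 conditions alone (0.0537).

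Gfi1b (ENSMUSG00000026815.14, GRCm38 chr2:28609450-28621982, minus strand) encodes a zinc finger repressor. It was at 6.64, 7.23, 7.07, 6.87 and 3.12 CPM with the empty vector, where replicate 5 stood below the other 4. It was at 2.80, 3.75, 3.67, 3.33 and 2.35 CPM with G-NHA9-8FA and 3.15, 2.73, 3.68, 4.01 and 3.58 CPM with G-NHA9Midi, overlapping only that low library. It was at 11.7, 21.7, 16.2, 18.8 and 20.0 CPM with G-NHA9-21FGAA, 8.32, 14.9, 14.4, 10.5 and 18.3 CPM with G-NHA9Midi-21FGAA and 9.92, 15.1, 15.4, 12.003 and 10.99 CPM with G-NHA9-ΔDNA, each set above every empty vector library. Gfi1b fell 1.94-fold with G-NHA9-8FA (-0.96 ± 0.21, adjusted p = 8.72e-04) and 1.80-fold with G-NHA9Midi (-0.85 ± 0.21, adjusted p = 0.00151). It rose 2.85-fold with G-NHA9-21FGAA (1.51 ± 0.21, adjusted p = 5.14e-06), 2.14-fold with G-NHA9Midi-21FGAA (1.10 ± 0.21, adjusted p = 8.08e-04) and 2.05-fold with G-NHA9-ΔDNA (1.03 ± 0.21, adjusted p = 0.00129). With G-NHA9 its log2 fold change was 0.43 ± 0.21, adjusted p = 0.115. Library sizes without TMM made that last value a call (0.60, adjusted p = 0.0208).

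**Figure D2:**
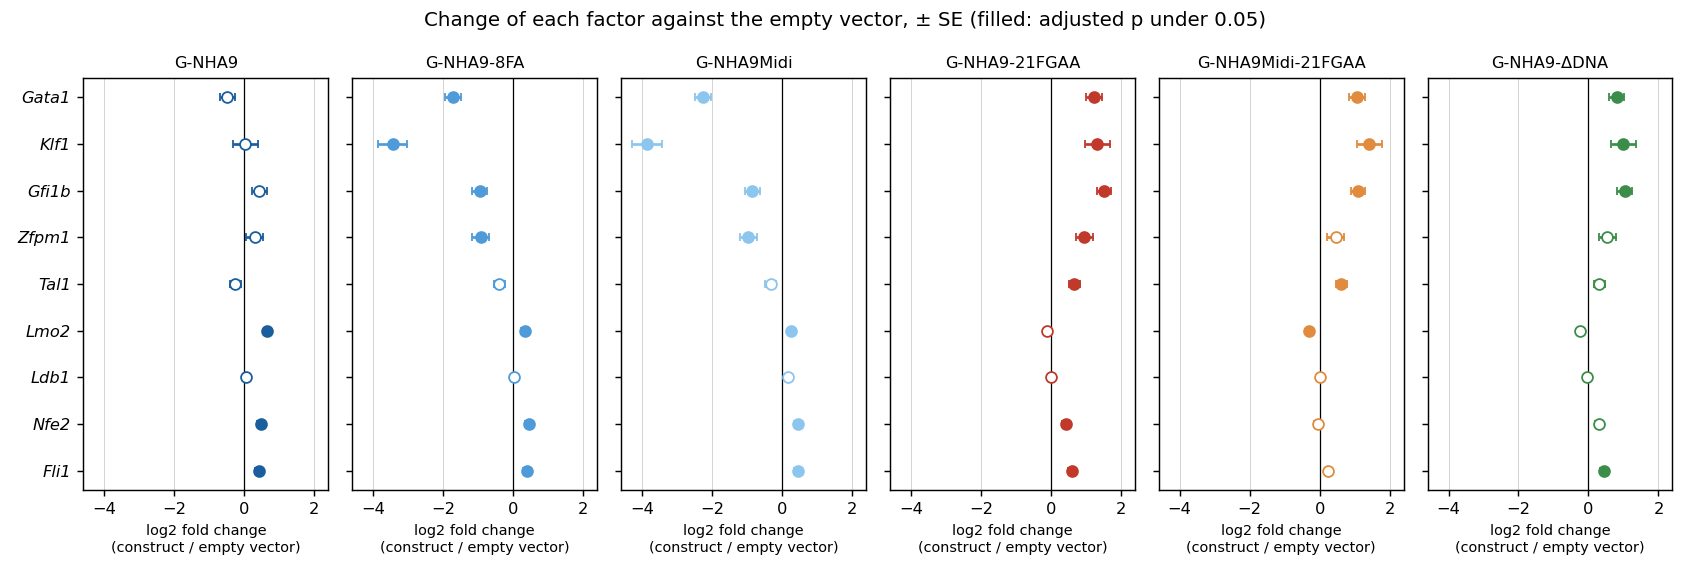
Log2 fold change ± SE (x axis) of the 9 factors (y axis) for each construct against the empty vector, with filled points at an adjusted p under 0.05. Klf1 and Gata1 lie far left of 0 with G-NHA9-8FA and G-NHA9Midi (-3.86 and -2.25 with the latter) and right of 0 with the 21FGAA and ΔDNA constructs.

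The 3 proteins of the TAL1 complex did not move together. Tal1 (GRCm38 chr4:115056426-115071755, plus strand), a basic helix-loop-helix factor, was at 76.0, 86.6, 93.0, 91.9 and 88.1 CPM with the empty vector and 103, 139, 132, 151 and 166 CPM with G-NHA9-21FGAA, 2 sets that did not overlap. It rose 1.59-fold there (0.67 ± 0.15, adjusted p = 0.00155) and 1.54-fold with G-NHA9Midi-21FGAA (0.62 ± 0.15, adjusted p = 0.00577), where the libraries spread from 80.6 to 175 CPM. Its log2 fold change was -0.26 ± 0.15, adjusted p = 0.202 with G-NHA9 and 0.31 ± 0.15, adjusted p = 0.171 with G-NHA9-ΔDNA. It was -0.40 ± 0.15, adjusted p = 0.0531 with G-NHA9-8FA and -0.33 ± 0.15, adjusted p = 0.0899 with G-NHA9Midi. The last 2 passed with the replicate block (-0.39, adjusted p = 0.00767, and -0.33, adjusted p = 0.0164), and G-NHA9-8FA also passed without empty vector replicate 1, G-NHA9-8FA replicate 2 or G-NHA9-8FA replicate 3 (adjusted p of 0.0343 to 0.0419) and by DESeq2 (0.0358), RLE factors, a filter at a mean of 1 CPM, a covariate for sex-linked transcripts and a fit of the 2 conditions alone (0.00790 to 0.0471). G-NHA9Midi passed in such a fit of 2 conditions (0.0373), and G-NHA9-ΔDNA without TMM (0.44, adjusted p = 0.0489).

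Lmo2 (GRCm38 chr2:103957986-103981878, plus strand), an adaptor of the complex and also a gene of early progenitors, was highest with G-NHA9. It was at 85.0, 103, 105, 84.3 and 85.2 CPM with the empty vector and 144, 150.1, 165, 152 and 114 CPM with G-NHA9, all of the latter above the former. It rose 1.57-fold with G-NHA9 (0.65 ± 0.097, adjusted p = 3.58e-06), 1.25-fold with G-NHA9-8FA (0.33 ± 0.097, adjusted p = 0.0114) and 1.19-fold with G-NHA9Midi (0.25 ± 0.097, adjusted p = 0.0349). It fell 1.24-fold with G-NHA9Midi-21FGAA (-0.31 ± 0.097, adjusted p = 0.0259), from 5 libraries at 71.0, 82.8, 78.5, 67.5 and 73.9 CPM, none of which reached the lowest empty vector library. With G-NHA9-21FGAA its log2 fold change was -0.098 ± 0.096, adjusted p = 0.492 and with G-NHA9-ΔDNA -0.23 ± 0.097, adjusted p = 0.0961, the last of which passed with the replicate block (-0.23, adjusted p = 0.0329). The small changes of Lmo2 were fragile. The G-NHA9-8FA call was lost without G-NHA9-8FA replicate 2 (adjusted p = 0.0583), with no filter (0.0518) or in a fit of the 2 conditions alone (0.0519). The G-NHA9Midi call was lost without empty vector replicate 1, 4 or 5 or G-NHA9Midi replicate 3 or 4 (0.0591 to 0.101), with no filter (0.103) or with a sex-linked covariate (0.0631). The G-NHA9Midi-21FGAA call was lost without empty vector replicate 2 or 3 or G-NHA9Midi-21FGAA replicate 1, 4 or 5 (0.0617 to 0.0871), without TMM (0.181) or with no filter (0.122).

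Ldb1 (GRCm38 chr19:46031570-46045214, minus strand), the adaptor that links enhancers to promoters, was the steadiest of the 9. Its condition means lay between 67.5 ± 4.26 CPM (SD, n = 5) with G-NHA9-ΔDNA and 77.7 ± 5.52 CPM with G-NHA9Midi. None of its 6 changes against the empty vector passed. The largest was 0.16 ± 0.080, adjusted p = 0.102 with G-NHA9Midi, with a 95% interval of 0.0072 to 0.32 on the log2 scale. It became a call without TMM (0.29, adjusted p = 0.00768), as did G-NHA9 (0.22, adjusted p = 0.0397). In GENCODE M21, 177 exon bases of Ldb1 overlap Pprc1 on the other strand, and whether the counting used strand is not given in the sources used here.

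Nfe2 and Fli1, the factors most tied to megakaryocytes, rose in most conditions, also where Gata1 and Klf1 fell. Nfe2 (GRCm38 chr15:103248212-103258403, minus strand) was at 91.2, 102, 106, 111 and 95.4 CPM with the empty vector, 122, 148, 148, 142 and 142 CPM with G-NHA9 and 112, 138, 142, 142 and 153 CPM with G-NHA9Midi, both of the latter above every empty vector library. It rose 1.39-fold with G-NHA9 (0.47 ± 0.11, adjusted p = 0.00115), 1.36-fold with G-NHA9-8FA (0.44 ± 0.11, adjusted p = 0.00283), 1.36-fold with G-NHA9Midi (0.44 ± 0.11, adjusted p = 0.00152) and 1.34-fold with G-NHA9-21FGAA (0.42 ± 0.11, adjusted p = 0.00474). Its log2 fold change was -0.045 ± 0.11, adjusted p = 0.824 with G-NHA9Midi-21FGAA and 0.31 ± 0.11, adjusted p = 0.0510 with G-NHA9-ΔDNA. The latter passed with the replicate block (0.30, adjusted p = 0.00565), by DESeq2 (0.0327) and when empty vector replicate 4 or G-NHA9-ΔDNA replicate 1 or 4 was left out (0.0424 to 0.0495), and also without TMM, with RLE factors, with a filter at a mean of 1 CPM, with the sex-linked covariate and in a fit of the 2 conditions alone (0.00785 to 0.0443).

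Fli1 (GRCm38 chr9:32422204-32542861, minus strand), an ETS factor, was at 96.8, 84.7, 99.5, 75.3 and 74.8 CPM with the empty vector and 127, 139, 125, 135 and 127 CPM with G-NHA9-21FGAA, its highest condition and wholly above the empty vector. It rose 1.33-fold with G-NHA9 (0.42 ± 0.10, adjusted p = 0.00206), 1.31-fold with G-NHA9-8FA (0.39 ± 0.10, adjusted p = 0.00465) and 1.37-fold with G-NHA9Midi (0.45 ± 0.10, adjusted p = 6.59e-04). It rose 1.51-fold with G-NHA9-21FGAA (0.60 ± 0.10, adjusted p = 8.60e-05) and 1.35-fold with G-NHA9-ΔDNA (0.44 ± 0.10, adjusted p = 0.00408). Fli1 was thus called higher in 5 of the 6 comparisons, more often than any of the other 8 factors was called higher. With G-NHA9Midi-21FGAA the log2 fold change was 0.24 ± 0.10, adjusted p = 0.10001, which passed with the replicate block (0.25, adjusted p = 0.0362) and without TMM (0.38, adjusted p = 0.00925), as well as with the sex-linked covariate (0.0330).

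Each mutant was next compared with G-NHA9, with which the comparisons share 5 libraries. With G-NHA9-8FA 5 of the 9 factors fell, beside 8.04% of all genes, and with G-NHA9Midi the same 5 fell, beside 11.2%. With G-NHA9-21FGAA 5 rose and 1 fell, beside 8.91% and 8.34%, and with G-NHA9-ΔDNA 4 rose and 1 fell, beside 10.7% and 11.4%. Klf1 fell 11.1-fold with G-NHA9-8FA (-3.47 ± 0.42, adjusted p = 5.60e-07) and 14.7-fold with G-NHA9Midi (-3.88 ± 0.44, adjusted p = 6.43e-08). Gata1 fell 2.36-fold (-1.24 ± 0.22, adjusted p = 2.17e-04) and 3.38-fold (-1.76 ± 0.23, adjusted p = 7.66e-07), Gfi1b 2.61-fold (adjusted p = 2.27e-05) and 2.43-fold (3.38e-05), and Zfpm1 2.33-fold (6.12e-04) and 2.39-fold (2.49e-04). For these 4 genes every library of both mutants lay below every G-NHA9 library, while the ranges were apart for 9.40% and 13.1% of all genes. Lmo2 was the fifth, at -0.32 ± 0.096, adjusted p = 0.0214 with G-NHA9-8FA and -0.40 ± 0.097, adjusted p = 0.00326 with G-NHA9Midi, and the first of these was lost without G-NHA9 replicate 3 or G-NHA9-8FA replicate 4 or 5 (adjusted p of 0.0549 to 0.0591), with no filter (0.0577) or in a fit of the 2 conditions alone (0.0961). Nfe2, Fli1, Tal1 and Ldb1 did not pass in either comparison, with log2 fold changes between -0.14 and 0.12.

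Against G-NHA9, the 21FGAA and ΔDNA mutants had the opposite direction in Gata1. It rose 3.31-fold with G-NHA9-21FGAA (1.73 ± 0.22, adjusted p = 5.14e-07) and 2.45-fold with G-NHA9-ΔDNA (1.29 ± 0.22, adjusted p = 3.91e-05), and all 5 libraries of both lay above the highest G-NHA9 library. Klf1 rose 2.47-fold (1.31 ± 0.36, adjusted p = 0.00836) and 1.97-fold (0.98 ± 0.35, adjusted p = 0.0449), Gfi1b 2.12-fold (1.09 ± 0.21, adjusted p = 1.97e-04) and 1.52-fold (0.61 ± 0.20, adjusted p = 0.0302), and Tal1 1.90-fold (0.93 ± 0.15, adjusted p = 3.25e-05) and 1.48-fold (0.57 ± 0.15, adjusted p = 0.00662). Zfpm1 rose with G-NHA9-21FGAA (0.67 ± 0.24, adjusted p = 0.0465). Lmo2 went the other way and fell 1.68-fold (-0.75 ± 0.097, adjusted p = 5.75e-07) and 1.84-fold (-0.88 ± 0.097, adjusted p = 2.18e-08), with every library below every G-NHA9 library. The share of all genes with ranges apart is not given here for the 21FGAA and ΔDNA mutants against G-NHA9. Several of the smaller changes lay near the threshold and were lost when any 1 of several libraries was left out. Klf1 with G-NHA9-ΔDNA was lost without G-NHA9 replicate 1, 2, 3 or 4 or G-NHA9-ΔDNA replicate 2 or 3 (adjusted p of 0.0574 to 0.124), without TMM (0.0664) or in a fit of the 2 conditions alone (0.0504). Gfi1b with G-NHA9-ΔDNA was lost without G-NHA9 replicate 1 or 4 or G-NHA9-ΔDNA replicate 2 or 3 (0.0567 to 0.0824). Zfpm1 with G-NHA9-21FGAA was lost without G-NHA9 replicate 1, 2 or 4 or G-NHA9-21FGAA replicate 2, 3 or 5 (0.0586 to 0.135), without TMM (0.0570) or in a fit of the 2 conditions alone (0.0550).

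The 21FGAA mutations were made in both the full-length and the Midi construct, so their effect could be compared between the 2 backgrounds. From G-NHA9Midi to G-NHA9Midi-21FGAA 5 of the 9 factors rose and 2 fell, beside 21.0% and 22.2% of all genes. Klf1 rose 38.8-fold (5.28 ± 0.45, adjusted p = 2.68e-11), Gata1 9.94-fold (3.31 ± 0.24, adjusted p = 8.63e-13), Gfi1b 3.87-fold (1.95 ± 0.21, adjusted p = 5.01e-09), Zfpm1 2.69-fold (1.43 ± 0.24, adjusted p = 1.18e-05) and Tal1 1.93-fold (0.95 ± 0.15, adjusted p = 6.64e-06). Of these, Zfpm1, Gata1, Klf1 and Gfi1b had no overlap between the 5 and 5 libraries. Nfe2 fell 1.40-fold (-0.49 ± 0.11, adjusted p = 5.09e-04) and Lmo2 1.48-fold (-0.56 ± 0.097, adjusted p = 1.54e-05), the latter with no overlap. Ranges were apart for 30.1% of all genes. Fli1 (-0.21 ± 0.10, adjusted p = 0.104) and Ldb1 (-0.15 ± 0.080, adjusted p = 0.125) did not pass.

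The difference between the 2 backgrounds was tested as an interaction, the change from G-NHA9 to G-NHA9-21FGAA minus that from G-NHA9Midi to G-NHA9Midi-21FGAA. It passed for 3 of the 9 factors, all smaller in the full-length construct, beside 7.43% of all genes with a difference in that direction. The rise of Klf1 was 15.7 times smaller in the full-length construct (log2 difference -3.97 ± 0.56, adjusted p = 6.93e-06), that of Gata1 3.004 times smaller (-1.59 ± 0.31, adjusted p = 5.83e-04) and that of Gfi1b 1.82 times smaller (-0.87 ± 0.29, adjusted p = 0.0446). For Gata1 and Klf1 the 2 starting points differed more than the end points. Gata1 began at 14.1 ± 3.56 CPM with G-NHA9 and 4.16 ± 1.31 CPM with G-NHA9Midi (SD, n = 5), and reached 46.6 ± 9.25 and 41.4 ± 13.8 CPM. Klf1 began at 5.83 ± 2.34 and 0.393 ± 0.135 CPM and reached 14.4 ± 4.85 and 15.3 ± 7.19 CPM. For Tal1 the difference was -0.019 ± 0.22, adjusted p = 0.972, with a 95% interval of -0.44 to 0.41. Zfpm1 was at -0.76 ± 0.33, adjusted p = 0.142, Nfe2 at 0.44 ± 0.16, adjusted p = 0.0610 and Fli1 at 0.39 ± 0.15, adjusted p = 0.0756, and each of these 3 passed with the replicate block (adjusted p of 0.00679, 0.00521 and 0.0257). Nfe2 also passed by DESeq2 (0.0469) and without G-NHA9 replicate 2, G-NHA9-21FGAA replicate 1, G-NHA9Midi replicate 1 or G-NHA9Midi-21FGAA replicate 2 or 5 (adjusted p of 0.0281 to 0.0443), Zfpm1 without G-NHA9Midi-21FGAA replicate 1 (0.0448) and Fli1 without G-NHA9Midi replicate 4 or 5 (0.0439 and 0.0469). The Gfi1b call was lost without any 1 of 13 of the 20 libraries (adjusted p of 0.0503 to 0.106), which were G-NHA9 replicates 2, 3 and 4, G-NHA9-21FGAA replicates 1, 3 and 4, G-NHA9Midi replicates 1, 2, 3 and 5, and G-NHA9Midi-21FGAA replicates 2, 3 and 5. It was also lost with no filter on low counts (0.0677).

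**Figure D3:**
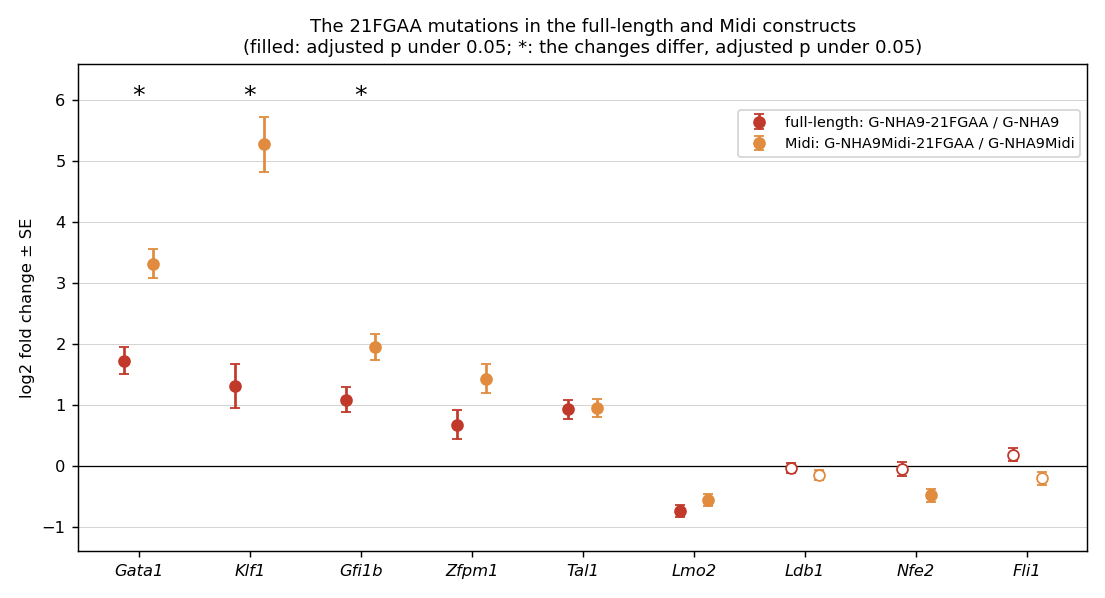
Log2 fold change ± SE (y axis) of each factor (x axis) when the 21FGAA mutations are made in the full-length construct or in the Midi construct, with filled points at an adjusted p under 0.05 and an asterisk where the 2 changes differ at that threshold. Klf1 is at 1.31 in the full-length and 5.28 in the Midi construct, while Tal1 is at 0.93 and 0.95.

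G-NHA9Midi and G-NHA9-8FA, the 2 conditions with low Gata1, were compared with each other as well. None of the 9 factors passed in edgeR's quasi-likelihood test, in which 4.25% of all genes were called, 1 had an unadjusted p under 0.05, and DESeq2 called 0. That 1 gene was Gata1, at -0.52 ± 0.23, adjusted p = 0.229, with a 95% interval of -0.97 to -0.074 on the log2 scale. Klf1 was at -0.41 ± 0.48, adjusted p = 0.771, and its interval of -1.36 to 0.54 covers a more than 2-fold fall as well as a rise. The intervals of Gfi1b (-0.31 to 0.52), Zfpm1 (-0.51 to 0.43) and Lmo2 (-0.26 to 0.12) all covered 0.

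Gata1 was also read against 2 other genes within each library, which does not depend on the scaling between libraries. Spi1 encodes PU.1, the myeloid factor that antagonises GATA1, and Gata2 encodes the GATA factor that GATA1 replaces as red cells mature. Spi1 counts were 11.1 times Gata1 counts with the empty vector and 12.04 times with G-NHA9. They were 36.1 times with G-NHA9-8FA, 47.9 times with G-NHA9Midi, 3.40 times with G-NHA9-21FGAA, 4.598 times with G-NHA9Midi-21FGAA and 5.52 times with G-NHA9-ΔDNA. Against the empty vector, the log2 ratio of Gata1 to Spi1 differed by -1.71 ± 0.18 (SE) with G-NHA9-8FA, -2.12 ± 0.21 with G-NHA9Midi, 1.70 ± 0.21 with G-NHA9-21FGAA, 1.27 ± 0.31 with G-NHA9Midi-21FGAA and 1.003 ± 0.20 with G-NHA9-ΔDNA. In all 5 the ranges were apart and the exact two-sided permutation test gave p = 0.00794, the smallest that 5 against 5 libraries can give (adjusted over 12 ratio tests, 0.0136). With G-NHA9 the difference was -0.12 ± 0.21 (exact permutation p = 0.595, adjusted 0.643). Spi1 itself fell little, at -0.38 ± 0.075, adjusted p = 1.53e-04 with G-NHA9, -0.46 ± 0.075, adjusted p = 3.83e-05 with G-NHA9-21FGAA and -0.25 ± 0.074, adjusted p = 0.0209 with G-NHA9Midi-21FGAA.

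The log2 ratio of Gata1 to Gata2 differed by -0.85 with G-NHA9-8FA and by -1.398 with G-NHA9Midi (exact permutation p = 0.00794 and adjusted 0.0136 for both). The rises of 0.52 ± 0.27 with G-NHA9-21FGAA, 0.52 ± 0.23 with G-NHA9Midi-21FGAA and 0.47 ± 0.31 with G-NHA9-ΔDNA did not pass after adjustment (exact permutation, adjusted p = 0.159, 0.0595 and 0.190). The G-NHA9Midi-21FGAA rise passed when empty vector replicate 2 was left out (0.66, adjusted p = 0.0119). Gata2 moved in the same direction as Gata1 in part of the conditions. It fell with G-NHA9-8FA (-0.89 ± 0.27, adjusted p = 0.0136) and G-NHA9Midi (-0.88 ± 0.27, adjusted p = 0.00926) and rose with G-NHA9-21FGAA (0.73 ± 0.27, adjusted p = 0.0407). With the replicate number as pairs, an exact sign-flip permutation test of 5 pairs cannot go below p = 0.0625, so no paired ratio test could pass.

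**Figure D4:**
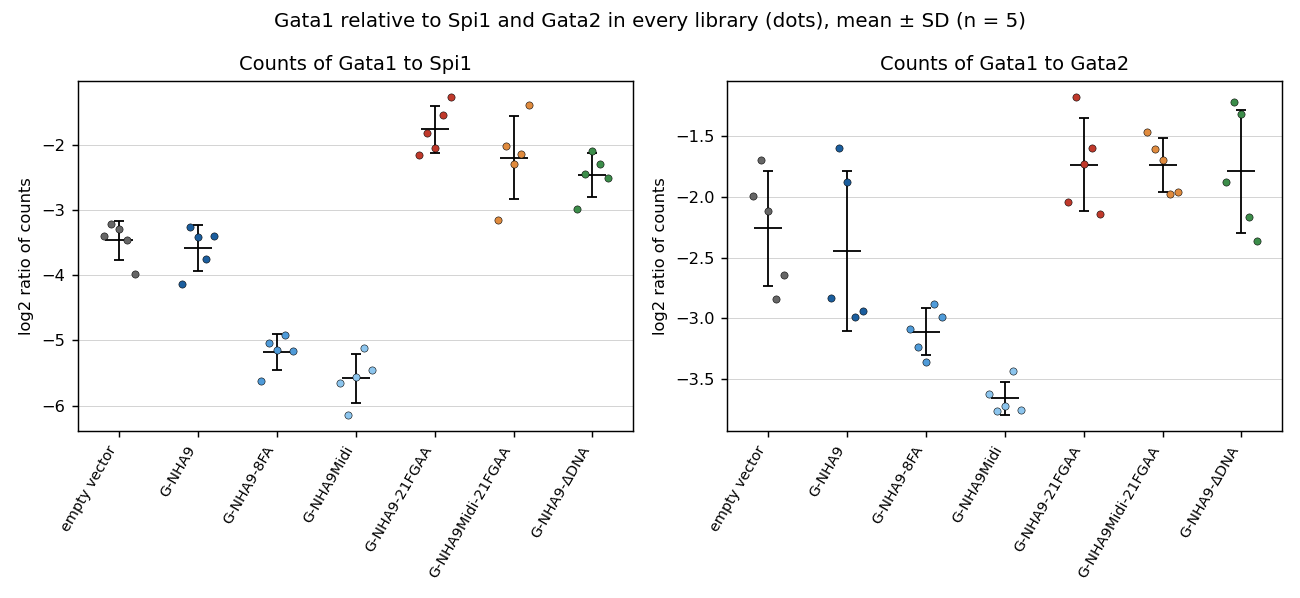
Log2 ratio of Gata1 counts to Spi1 counts and to Gata2 counts (y axes) in the 7 conditions (x axes), with 1 dot per library and a bar for mean ± SD (n = 5). The mean ratio to Spi1 is -3.47 with the empty vector, -5.58 with G-NHA9Midi and -1.77 with G-NHA9-21FGAA.

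Other genes of the same regulatory network were taken from lists chosen by function, with earlier results of these data known. Their counts stand beside the shares of all tested genes that rose and fell, which were 16.9% and 15.2% with G-NHA9, 13.4% and 13.2% with G-NHA9-8FA, 20.5% and 20.0% with G-NHA9Midi, 14.7% and 12.5% with G-NHA9-21FGAA, 9.59% and 7.32% with G-NHA9Midi-21FGAA, and 9.85% and 7.35% with G-NHA9-ΔDNA. Of 17 partners and co-regulators of GATA1, 6 rose and 0 fell with G-NHA9, 5 rose and 1 fell with G-NHA9-8FA, 9 rose and 2 fell with G-NHA9Midi, and 6 rose and 1 fell with G-NHA9-21FGAA. With G-NHA9Midi-21FGAA 1 rose and 3 fell, and with G-NHA9-ΔDNA 2 rose and 1 fell. The 2 of 17 that fell with G-NHA9Midi are fewer than the share of all genes, and the counts with G-NHA9-ΔDNA are close to it. The median log2 fold change of the list lay between 0.059 with G-NHA9Midi-21FGAA and 0.24 with G-NHA9Midi. Of its 3 most abundant genes, Chd4, the remodeller of the NuRD complex, was at -0.12 ± 0.085, adjusted p = 0.280 with G-NHA9Midi, and Mta2, of the same complex, rose slightly there (0.18 ± 0.062, adjusted p = 0.0226). Runx1, a partner in megakaryocytes, was at -0.47 ± 0.26, adjusted p = 0.196 with G-NHA9-8FA and -0.63 ± 0.27, adjusted p = 0.0558 with G-NHA9Midi. Gfi1, the paralog of Gfi1b and a repressor of the myeloid side, was chosen after its values were seen. It rose with G-NHA9 (1.84 ± 0.26, adjusted p = 1.14e-06), G-NHA9-8FA (2.28 ± 0.26, adjusted p = 5.05e-08) and G-NHA9Midi (2.08 ± 0.26, adjusted p = 8.38e-08), so in the last pair of conditions Gfi1 rose while Gfi1b fell.

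Among 14 other erythroid regulators, 4 fell and 1 rose with G-NHA9-8FA, 5 fell and 2 rose with G-NHA9Midi, and 5 rose and 3 fell with G-NHA9-21FGAA. With G-NHA9 2 rose and 3 fell, and with G-NHA9Midi-21FGAA and G-NHA9-ΔDNA alike 3 rose and 2 fell. The counts with G-NHA9 are close to the 16.9% and 15.2% of all genes, and the 4 and 5 that fell with G-NHA9-8FA and G-NHA9Midi stand beside 13.2% and 20.0%. The median log2 fold changes were small, from -0.19 with G-NHA9Midi to 0.17 with G-NHA9-21FGAA. The 3 most abundant were Jak2 (a kinase of the erythropoietin receptor), Bach1 (a heme-sensing repressor) and Foxo3, a factor active in maturing red cells. Against the empty vector with G-NHA9-21FGAA, Jak2 was at 0.36 ± 0.12, adjusted p = 0.0243, Bach1 at -0.54 ± 0.13, adjusted p = 0.00193 and Foxo3 at 0.11 ± 0.11, adjusted p = 0.492. Epor and Sox6 were singled out after their values were seen. Epor, the erythropoietin receptor, fell with G-NHA9-8FA (-2.004 ± 0.26, adjusted p = 6.61e-07) and G-NHA9Midi (-3.02 ± 0.28, adjusted p = 3.62e-10) and rose with G-NHA9-21FGAA (1.15 ± 0.24, adjusted p = 6.71e-04). Sox6, a repressor of embryonic globin, was at -1.73, -2.14 and 1.88 in the same 3 comparisons, all of them calls.

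Among 9 other megakaryocyte regulators, 5 rose with G-NHA9 and 5 with G-NHA9-21FGAA, 3 rose and 1 fell with G-NHA9-8FA and with G-NHA9Midi, 3 rose with G-NHA9-ΔDNA and 1 with G-NHA9Midi-21FGAA. The single genes of 9 are close to the shares of all genes (13.2% lower with G-NHA9-8FA, 9.59% higher with G-NHA9Midi-21FGAA), while the 5 that rose stand beside 16.9% and 14.7%. The list's median was 0.55 with G-NHA9 and 0.41 with G-NHA9-21FGAA. The 3 most abundant were ETS or ETS-related factors. Ets1 rose with G-NHA9 (1.10 ± 0.14, adjusted p = 2.44e-07) and G-NHA9-8FA (1.35 ± 0.14, adjusted p = 9.68e-09), while Etv6 (0.55 ± 0.23, adjusted p = 0.0668) and Gabpa (0.066 ± 0.13, adjusted p = 0.746) did not pass with G-NHA9.

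Marker genes were counted for each lineage, on lists also chosen with earlier results of these data known. Of 27 red cell genes, 23 fell with G-NHA9-8FA and 21 fell and 1 rose with G-NHA9Midi (13.2% and 20.0% of all genes fell), with median log2 fold changes of -3.75 and -4.46 beside 0.03 and 0.02 for all genes. With G-NHA9-21FGAA 18 rose, with G-NHA9Midi-21FGAA 20 and with G-NHA9-ΔDNA 11 (14.7%, 9.59% and 9.85% of all genes), and with G-NHA9 2 rose and 1 fell, fewer than the 16.9% and 15.2% of all genes. The summed level of the list was 685 to 1363 CPM over the empty vector libraries, 401 to 476 CPM with G-NHA9-8FA, 489 to 659.8 CPM with G-NHA9Midi and 1119 to 2979 CPM with G-NHA9-21FGAA. The 3 most abundant genes of the list behaved differently. Beta globin Hbb-bs fell with G-NHA9-8FA (-3.90 ± 0.64, adjusted p = 1.92e-05) and G-NHA9Midi (-4.63 ± 0.66, adjusted p = 9.80e-07). Tfrc, the transferrin receptor used by all dividing cells, was at -0.030 ± 0.25, adjusted p = 0.938 with G-NHA9Midi and rose with G-NHA9-21FGAA (1.29 ± 0.25, adjusted p = 2.77e-04). Epb41, a membrane skeleton gene, fell slightly with G-NHA9Midi (-0.30 ± 0.10, adjusted p = 0.0212).

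All 15 megakaryocyte genes fell with G-NHA9-8FA and with G-NHA9Midi, 8 fell with G-NHA9, 4 rose with G-NHA9-21FGAA and 1 rose with G-NHA9-ΔDNA. Of all genes 13.2%, 20.0% and 15.2% fell in the first 3 of these comparisons, and 14.7% and 9.85% rose in the last pair. With G-NHA9Midi-21FGAA, where Gata1, Klf1, Gfi1b and Tal1 rose, 0 of the 15 were called by edgeR's quasi-likelihood test or by DESeq2, 1 had an unadjusted p under 0.05, and the median was 0.12. Their summed level was 1162 to 2079 CPM with the empty vector, 625 to 1428 CPM with G-NHA9, 512 to 588 CPM with G-NHA9-8FA and 217 to 412 CPM with G-NHA9Midi. Among the most abundant of them, the platelet chemokine Pf4 fell with G-NHA9 (-0.98 ± 0.36, adjusted p = 0.0333) and with G-NHA9Midi (-3.15 ± 0.38, adjusted p = 5.85e-08). Itgb3 fell with G-NHA9Midi (-2.08 ± 0.26, adjusted p = 8.70e-08), and so did Vwf, which endothelial cells also make (-2.05 ± 0.21, adjusted p = 2.35e-09). Of the 15 genes 8, 15 and 15 thus fell with G-NHA9, G-NHA9-8FA and G-NHA9Midi, 3 conditions in which Nfe2, Lmo2 and Fli1 were all called higher.

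Another pair of lineages that share GATA factors with these cells were counted as well. Of 10 mast cell and basophil genes, 7 fell with G-NHA9, 8 with G-NHA9-8FA and 8 with G-NHA9Midi, while 3 rose with G-NHA9-21FGAA and 4 with G-NHA9Midi-21FGAA. Beside these, 15.2%, 13.2% and 20.0% of all genes fell and 14.7% and 9.59% rose. With G-NHA9-ΔDNA, where Gata1, Klf1 and Gfi1b rose, 0 of the 10 were called by edgeR's quasi-likelihood test or by DESeq2, and 1 had an unadjusted p under 0.05. Their summed level was 1299 to 3672 CPM with the empty vector, 688 to 1024 CPM with G-NHA9, 605 to 958 CPM with G-NHA9-8FA, 488 to 925 CPM with G-NHA9Midi, 3423 to 4779 CPM with G-NHA9-21FGAA, 2707 to 6407 CPM with G-NHA9Midi-21FGAA and 2666 to 4033 CPM with G-NHA9-ΔDNA. Of 9 eosinophil genes, 5 fell with G-NHA9, 8 fell with G-NHA9-8FA and 8 fell and 1 rose with G-NHA9Midi, while 1 rose with G-NHA9-21FGAA, 1 with G-NHA9Midi-21FGAA and 2 with G-NHA9-ΔDNA. Of all genes, 15.2%, 13.2% and 20.0% fell in the first 3 of these comparisons, and 14.7%, 9.59% and 9.85% rose in the last 3. The single genes that rose with G-NHA9-21FGAA and G-NHA9Midi-21FGAA are close to these shares. The summed level of the eosinophil genes was 1388 to 1928 CPM with the empty vector, 77.1 to 298 CPM with G-NHA9-8FA and 44.2 to 128 CPM with G-NHA9Midi. No gene of these 4 lists had at most 3 counts in every library of a condition. The part of a changed number of red cells, megakaryocytes, mast cells or eosinophils in the changes of Gata1, Klf1, Gfi1b and Zfpm1 was not tested. With G-NHA9 the mast cell sum and the eosinophil sum (285 to 1033 CPM) were below every empty vector library, and the erythroid and megakaryocyte sums overlapped them. Gata1 was at -0.49 ± 0.22 there, which did not pass in the main fit but did with the replicate block, and Klf1 overlapped.

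**Figure D5:**
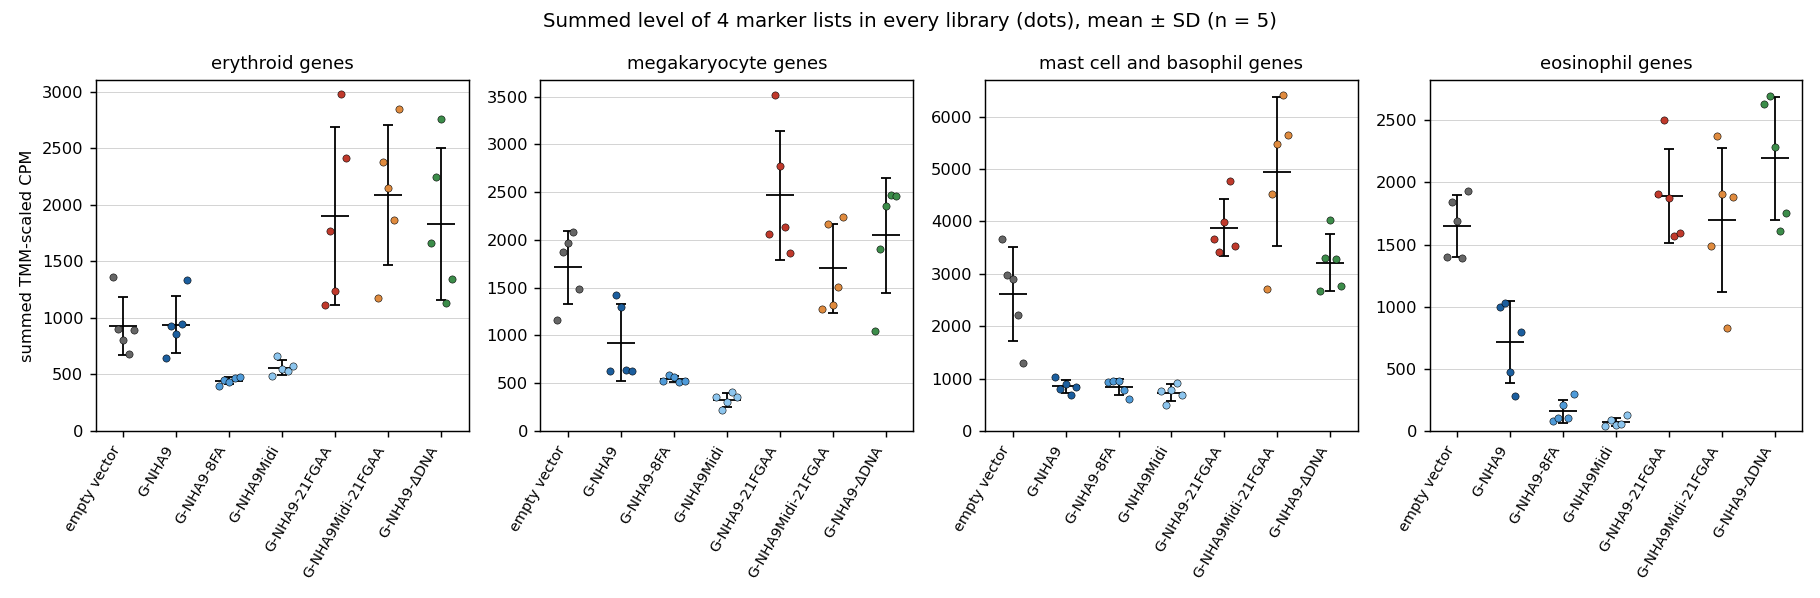
Summed TMM-scaled CPM (y axes, starting at 0) of the erythroid, megakaryocyte, mast cell and basophil, and eosinophil lists in the 7 conditions (x axes), with 1 dot per library and a bar for mean ± SD (n = 5). The erythroid sum reaches at most 476 CPM with G-NHA9-8FA and 659.8 CPM with G-NHA9Midi, below every empty vector library.

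The other marker lists were small, so 1 gene is a large share of each. Of all genes, 16.9% rose and 15.2% fell with G-NHA9, 13.4% and 13.2% with G-NHA9-8FA, and 20.5% and 20.0% with G-NHA9Midi. The shares were 14.7% and 12.5% with G-NHA9-21FGAA, 9.59% and 7.32% with G-NHA9Midi-21FGAA, and 9.85% and 7.35% with G-NHA9-ΔDNA. A single gene called in a list of 7 or 8 is near these shares. Of 6 myeloid regulators, 1 rose and 5 fell with G-NHA9-21FGAA (14.7% and 12.5% of all genes), 2 rose and 3 fell with G-NHA9 (16.9% and 15.2%), 2 rose and 1 fell with G-NHA9-8FA and 2 rose and 2 fell with G-NHA9Midi. With G-NHA9Midi-21FGAA 2 fell, and with G-NHA9-ΔDNA 1 rose and 2 fell. All 5 early granule genes rose with G-NHA9-21FGAA and with G-NHA9-ΔDNA (9.85% of all genes), as did 4 of them with G-NHA9, 4 with G-NHA9-8FA (13.4%) and 3 with G-NHA9Midi (20.5%). With G-NHA9Midi-21FGAA 0 of the 5 were called, by edgeR's quasi-likelihood test, at an unadjusted p under 0.05 or by DESeq2. Of 8 late neutrophil genes, 4 rose with G-NHA9-8FA, 3 rose and 3 fell with G-NHA9Midi, 2 rose and 1 fell with G-NHA9-ΔDNA, and 1 fell in each of the other comparisons. Of 7 macrophage genes, 3 rose and 2 fell with G-NHA9, while 1 fell with G-NHA9-8FA, 4 with G-NHA9Midi, 3 with G-NHA9-21FGAA and 2 with G-NHA9-ΔDNA. With G-NHA9Midi-21FGAA edgeR called 0 of the 7 and DESeq2 called 1 lower, the 1 with an unadjusted p under 0.05 in edgeR. Of 7 stem and progenitor genes, 4 rose and 1 fell with G-NHA9, 3 rose and 1 fell with G-NHA9-8FA and with G-NHA9-ΔDNA, 4 rose and 2 fell with G-NHA9Midi, 3 rose with G-NHA9-21FGAA and 2 with G-NHA9Midi-21FGAA. Of the 3 endothelial genes tested, 2 rose and 1 fell with G-NHA9-21FGAA and with G-NHA9Midi-21FGAA, 1 rose and 1 fell with G-NHA9 and with G-NHA9-8FA, 1 rose and 2 fell with G-NHA9Midi, and 0 were called with G-NHA9-ΔDNA. The 1 lymphoid gene tested did not pass in any comparison with the empty vector. In both of these cases DESeq2 called 0 and edgeR's quasi-likelihood test gave 0 an unadjusted p under 0.05.

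Over all 35 libraries, the genes most like each factor were found by Pearson's r of log2 CPM among the 10307 genes that averaged 5 CPM or more. These values are descriptions over libraries that share 7 conditions. Klf1 was most like Hemgn (0.99), Sptb (0.98) and Add2 (0.98), and Gata1 most like Mrvi1 (0.98), Lat (0.98) and Hemgn (0.97). Hemgn encodes hemogen, a nuclear protein of red cell precursors, and Sptb and Add2 encode parts of the membrane skeleton. Gfi1b was most like Sla2 (0.96), Fam109b (0.94) and Gata1 (0.93), and Zfpm1 most like Rbpms2 (0.96), Samd14 (0.95) and Gm15915 (0.94). Tal1 came next, with Gnb4 at 0.94. For Lmo2 the first was Bckdha (0.91), for Nfe2 Mycbp (0.86), for Fli1 Lbr (0.85) and for Ldb1 Mbtps1 (0.75).

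Among the 9 factors themselves, Gata1 and Klf1 had an r of 0.96, Gata1 and Gfi1b 0.93, and Gata1 and Tal1 0.88. After each condition's mean was removed these were 0.70, 0.79 and 0.80, so libraries of 1 condition with more Gata1 also had more of the other 3. Lmo2 ran against them over all libraries (-0.60 with Tal1 and -0.59 with Gata1) but not within conditions (0.32 and 0.29). Gata1 and Nfe2 had an r of -0.27 over all libraries and 0.60 within conditions. The within-condition values share library preparation and depth and carry no test.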

How the data were processed

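Whole-number counts deposited by the authors, with no normalization, gave the reads on each of 49671 genes in 35 RNA-seq libraries of lin- HSPCs, 5 for each of 7 conditions taken from the sample labels. The submitters' processing notes name STAR 2.7.0d, HTSeq 0.11.2, DESeq2 and mm10. Libraries were stranded total RNA, and the annotation and the use of strand in counting are not given in the sources used here. Gene positions came from GENCODE M21 (GRCm38) and promoter sequences from RefSeq.

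In R 4.3.3 with edgeR 4.0.16, filterByExpr kept 17166 genes holding 99.96% of the counts. TMM scaling was followed by 1 quasi-likelihood fit over all 35 libraries with a mean for each condition. Adjusted p-values (Benjamini-Hochberg) were computed over all tested genes within a comparison, with a threshold of 0.05. The SE is the log2 fold change divided by the root of F. Ratios used counts plus 0.5 and exact two-sided permutation tests written in Python 3.11.15 with NumPy 2.4.6. Total counts were 31559914 to 75810659 per library, and precision rests on the spread between libraries as well as on the counts.

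The 9 factors and all gene lists were chosen with earlier results of these data known. Named in the text are the 9 factors, Gata2 and Spi1, the 3 most abundant genes of a list, the genes most like each factor, and genes singled out after their values were seen, as said where they occur. Besides the partners and the other regulators, the lists hold markers of red cells (27 of 28 genes analysed here), megakaryocytes, mast cells and basophils, eosinophils, neutrophil granules early and late, macrophages, stem and progenitor cells, endothelial cells and lymphoid cells, and a set of myeloid regulators.

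The labels number the libraries within a condition. As a check of pairing, each library's deviation from its condition mean was correlated with those of other conditions. The mean r was 0.23 where the numbers matched and -0.06 where they did not. Every one of the 5 pairs had r above 0.1 in 5 of 12 comparisons. These were G-NHA9-ΔDNA, G-NHA9Midi-21FGAA and G-NHA9 against empty vector, and, against G-NHA9, the full-length 21FGAA and ΔDNA mutants. What the number stands for is not given in the sources used here, so the block was kept as an alternative. No library was a copy of another of its condition, with a chi-square per degree of freedom of at least 23.2 over 70 pairs within conditions. Pairs across conditions were not checked.

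In simulated data for G-NHA9 against the empty vector, 200 of 17166 genes were changed, all drawn from those averaging 1 CPM or more. The fit recovered 83.3% of those changed by a factor of 2 and 100% of those changed by a factor of 4. It called 7 unchanged genes. Recovery at lower levels was not tested, and no effect shared by libraries of the same replicate number was simulated. The alternatives were no TMM, RLE factors, no filter on low counts or one at a mean CPM of 1, the replicate block, a covariate made of sex-linked transcripts, a fit of the compared conditions alone, DESeq2 1.42.0, an absolute log2 fold change of at least 1, and leaving out each library in turn.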

Additional observations from a re-analysis of the deposited data

Results flagged for a closer look

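For each of the 9 factors in each of 7 conditions, 63 sets in all, the gap between the highest or lowest library and its nearest neighbour was set against the range of the 5 libraries, by Dixon's 95% limit, which chance passes in about 1 set in 20. It was passed in 2 sets. Gfi1b was at 3.12 CPM in empty vector replicate 5 and at 6.64 CPM in the next library, a gap of 0.857 of the range. Nfe2 was at 122 CPM in G-NHA9 replicate 1 and at 142 CPM in the next, a gap of 0.762 of the range. Replicate 1 was the lowest library for Nfe2 in 7 of 7 conditions, and replicate 5 was the lowest for Gfi1b in 2 of 7. The donors of the 2 flagged libraries are labelled 10 and 11 weeks old, against 8 weeks for 32 of the 35. Replicate 1 is labelled 8 weeks in every condition but G-NHA9. The parts of age and of the replicate number were not tested.

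The change brought by the 21FGAA mutations differed between the full-length and the Midi construct for 3 factors, by the interaction in edgeR's quasi-likelihood test. The log2 difference, full-length minus Midi, was -1.59 for Gata1 (adjusted p = 5.83e-04), -3.97 for Klf1 (adjusted p = 6.93e-06) and -0.87 for Gfi1b (adjusted p = 0.0446). All 3 rose in both constructs.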

How the results depend on the processing

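Of 117 fold changes of the 9 factors over 13 comparisons, 64 passed the threshold, and none of these 64 changed direction under any alternative run. Over all alternatives, 2070 of 2277 values kept direction and side of the threshold, 99 lost and 46 gained a call, and 62 changed direction, all of them among 21 fold changes that had not passed. Counts of called factors stayed within 1.5 times in 237 of 253 cases. Requiring an absolute log2 fold change of at least 1 lowered the counts, given here with those of all 17166 genes in brackets. Against the empty vector it left 0 factors with G-NHA9 (1810), 2 with G-NHA9-8FA (1643) and 2 with G-NHA9Midi (2560). It left 3 with G-NHA9-21FGAA (1029), 3 with G-NHA9Midi-21FGAA (599) and 1 with G-NHA9-ΔDNA (517). Against G-NHA9 it left 3 with G-NHA9-21FGAA (1348) and 1 with G-NHA9-ΔDNA (1627). From G-NHA9Midi to G-NHA9Midi-21FGAA it left 4 (2907). Without TMM 5 factors were called with G-NHA9, where the calls over all genes went from 5511 to 6643.

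With the replicate number as a block, 6 factors were called in the interaction and 7 with G-NHA9-ΔDNA against the empty vector. Calls over all 17166 genes rose as well, from 2167 to 3425 in the interaction and from 2952 to 4297 with G-NHA9-ΔDNA. Klf1 with G-NHA9 turned to -0.10 (adjusted p = 0.836, between 0.647 and 1 over its alternatives). Beside the calls named with the results, the block changed no other call of these factors. As pairs, the ratio differences kept their sizes of -1.71, -2.12, 1.70, 1.27 and 1.00 (Gata1 to Spi1) and -0.85 and -1.398 (Gata1 to Gata2), but the smallest adjusted p that 5 pairs allow is 0.0833.

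Without TMM the median of all genes moved by 0.18 with G-NHA9, 0.12 with G-NHA9Midi, 0.18 with G-NHA9-21FGAA, 0.14 with G-NHA9Midi-21FGAA and 0.13 with G-NHA9-ΔDNA against the empty vector on the log2 scale. The share of calls that were higher went from 52.5% to 75.4% with G-NHA9, from 50.6% to 64.6% with G-NHA9Midi, from 54.0% to 82.1% with G-NHA9-21FGAA, from 56.7% to 83.1% with G-NHA9Midi-21FGAA and from 57.3% to 82.5% with G-NHA9-ΔDNA. Against G-NHA9 it went from 44.4% to 20.0% with G-NHA9-8FA (median shift -0.13), and for G-NHA9Midi against G-NHA9-8FA from 35.5% to 59.1%. Small changes turned with it: Lmo2 with G-NHA9-21FGAA to 0.090, Nfe2 with G-NHA9Midi-21FGAA to 0.094, Ldb1 with G-NHA9-ΔDNA to 0.094, Fli1 against G-NHA9 to -0.016 with G-NHA9Midi and -0.020 with G-NHA9-ΔDNA, and Lmo2 and Zfpm1 with G-NHA9Midi against G-NHA9-8FA to 0.0048 and 0.032. With a score of sex-linked transcripts, Ldb1 with G-NHA9-21FGAA was at -7.14e-04, Fli1 with G-NHA9Midi against G-NHA9 at -0.022 and Zfpm1 with G-NHA9Midi against G-NHA9-8FA at 0.079. Without a filter Ldb1 with G-NHA9-21FGAA against G-NHA9 was at 1.88e-04, and Nfe2 with G-NHA9Midi against G-NHA9-8FA was at -3.34e-04 with RLE factors, -0.00544 with a filter at a mean of 1 CPM and -2.27e-04 by DESeq2.

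Leaving out 1 library at a time turned the direction of fold changes that had not passed, over these ranges. For Klf1 it ran from -0.17 to 0.27 for G-NHA9 against the empty vector. For Ldb1 it ran from -0.025 to 0.055 for G-NHA9-8FA against the empty vector, -0.0086 to 0.071 for G-NHA9-21FGAA against the empty vector, -0.0056 to 0.079 for G-NHA9Midi-21FGAA against the empty vector, -0.062 to 0.018 for G-NHA9-8FA against G-NHA9 and -0.057 to 0.035 for G-NHA9-21FGAA against G-NHA9. For Nfe2 it ran from -0.11 to 0.023 for G-NHA9Midi-21FGAA against the empty vector, -0.11 to 0.041 for G-NHA9-8FA against G-NHA9, -0.072 to 0.036 for G-NHA9Midi against G-NHA9, -0.078 to 0.017 for G-NHA9-21FGAA against G-NHA9 and -0.073 to 0.099 for G-NHA9Midi against G-NHA9-8FA. For Fli1 it ran from -0.085 to 0.014 for G-NHA9-8FA against G-NHA9, -0.041 to 0.093 for G-NHA9Midi against G-NHA9, -0.027 to 0.10 for G-NHA9-ΔDNA against G-NHA9 and -0.013 to 0.14 for G-NHA9Midi against G-NHA9-8FA. For Tal1 it ran from -0.12 to 0.027 for G-NHA9Midi against G-NHA9 and -0.14 to 0.10 for the interaction. For Zfpm1 it ran from -0.16 to 0.085 for G-NHA9Midi against G-NHA9-8FA. The G-NHA9 difference in the log2 ratio of Gata1 to Spi1 ran from -0.25 to 0.012, and turned without G-NHA9 replicate 1. The G-NHA9Midi-21FGAA difference in the ratio to Gata2 ran from 0.37 to 0.66. Factors called with G-NHA9-ΔDNA against G-NHA9 were 3 to 5, with 3 without G-NHA9 replicate 1 or 4 or G-NHA9-ΔDNA replicate 2 or 3. Depth limited Klf1 most, with 6 to 35 counts per library in G-NHA9-8FA and 9 to 26 in G-NHA9Midi. The cause of these shifts was not tested.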

Other observations

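Libraries with the same replicate number held similar places in several conditions. Replicate 1 was the lowest of its 5 libraries in 7 of 7 conditions for Nfe2 and for Zfpm1, in 5 of 7 for Gata1, Tal1 and Ldb1 (for Ldb1 it was the highest in the other 2), and in 4 of 7 for Klf1 and Gfi1b. Replicate 5 was the highest in 6 of 7 conditions for Zfpm1 and in 5 of 7 for Klf1.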
